A study of Homo sapiens with 192 samples.

Results

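The comparison described here asked which genes responded to 3D growth in the colorectal cancer (CRC) cell line LS513 but not in LS174T, and which did so in LS174T but not in LS513. It used 12 of the 24 RNA-sequencing libraries of the series, namely every library labelled LS513 or LS174T, with 3 libraries of each line grown in 2D and 3 grown in 3D. The measure was a difference of differences, the 3D against 2D change of LS513 minus the 3D against 2D change of LS174T, on the log2 scale. Both lines are established human colon carcinoma lines, were kept in the same culture medium (DMEM) according to the study's methods, and differed in their labels only by line and growth condition. The labels do not say whether the 3 libraries of a group came from separate cultures. The p-values rest on the spread between libraries within groups, which may therefore be technical. That spread was estimated for each gene over all 24 libraries, including those of the other lines, HT29 and HCT116. Each line is a single line, so a difference between the lines is a difference between these cultures and cannot be extended to any feature that the lines carry.

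Cells in the colon epithelium leave the crypt base, where Wnt signalling maintains stem cells, and mature either into absorptive colonocytes or into secretory cells such as goblet cells, which are directed by the transcription factor ATOH1 and produce mucus proteins and trefoil factors. Carcinoma lines keep parts of these programs to different degrees. Cells packed in 3D meet oxygen and nutrient gradients and lose contact with a rigid surface, and genes induced by low oxygen, sterol synthesis enzymes and amino acid stress genes are commonly followed as readouts of such conditions.

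Library totals were between 29400099 and 33063055 counts, so that 3 counts, taken as the limit of detection, corresponded to 0.0907 to 0.102 CPM, the usual scaling of counts to library size. All 11 intestinal epithelial markers examined, among them EPCAM, CDX2 and VIL1, were detected in both lines in both conditions, whereas 6 or 7 of 9 fibroblast markers and 5 or 6 of 7 endothelial markers had at most 3 counts in every library of a group. Of the 10 leukocyte markers, CD68, a lysosomal membrane protein, and LYZ accounted for the detected signal in LS513, where the summed level of the list went from 20.7 to 22.3 CPM in 2D to 65.4 to 96.4 CPM in 3D, and PTPRC, the defining leukocyte marker, stayed at no more than 3 counts. The summed epithelial level also went from 10940 to 11300 CPM in 2D to 15100 to 17230 CPM in 3D in LS513 and from 3614 to 5040 CPM to 4631 to 6881 CPM in LS174T, and the part of these levels in the results was not tested. One library stood apart: LS174T 3D replicate 2 correlated at 0.985 and 0.991 with the other LS174T 3D libraries, which correlated at 0.9975 with each other. It held 165 CPM of the small structural RNAs RN7SK, RMRP and RPPH1, against 8.06 and 10.5 CPM in the other LS174T 3D libraries, and 8054 CPM of mitochondrial ribosomal RNA against 1855 and 3352 CPM. The class counts are therefore also given without it, as are most changes of class or call of named genes. The part of these RNAs in any result was not tested. In LS513 3D, replicate 2 held 83.2 CPM of HMOX1, the heme oxygenase gene, against 21.2 and 23.1 CPM in the other libraries.

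A difference between the responses of LS513 and LS174T was called for 701 of 19387 genes tested (3.62%) at an adjusted p under 0.05. The response was higher in LS513 for 431 of them (2.22% of the genes tested) and lower in LS513 for 270 (1.39%). Each gene was then placed by whether its own 3D against 2D change passed the same threshold in each line. This gave 269 genes that rose in LS513 and were not called in LS174T (1.39%), 90 that fell in LS513 only (0.464%), 126 that rose in LS174T only (0.65%) and 49 that fell in LS174T only (0.253%). In a further 86 genes (0.444%) both lines were called in opposite directions, with 57 higher in LS513 3D and lower in LS174T 3D and 29 the reverse. Both lines moved the same way by different amounts in 75 genes (0.387%), of which 69 rose in both lines and 53 changed more in LS513. The remaining 6 genes (0.0309%) were called in neither line.

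These counts are much smaller than a comparison of the lists of called genes would give. In LS513, 2651 genes rose (13.7% of the genes tested) and 1920 fell (9.9%), and in LS174T 2531 rose (13.1%) and 1774 fell (9.15%). Of the 1446 genes that rose in LS513 and were not called in LS174T, only 269 also had a called difference between the lines. For the 1353 that rose in LS174T and were not called in LS513 that number was 126. Among the falling genes it was 90 of 1134 for LS513 and 49 of 961 for LS174T. The 1148 genes that rose in both lines were 43.3% of the LS513 list and 45.4% of the LS174T list.

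**Figure D1:**
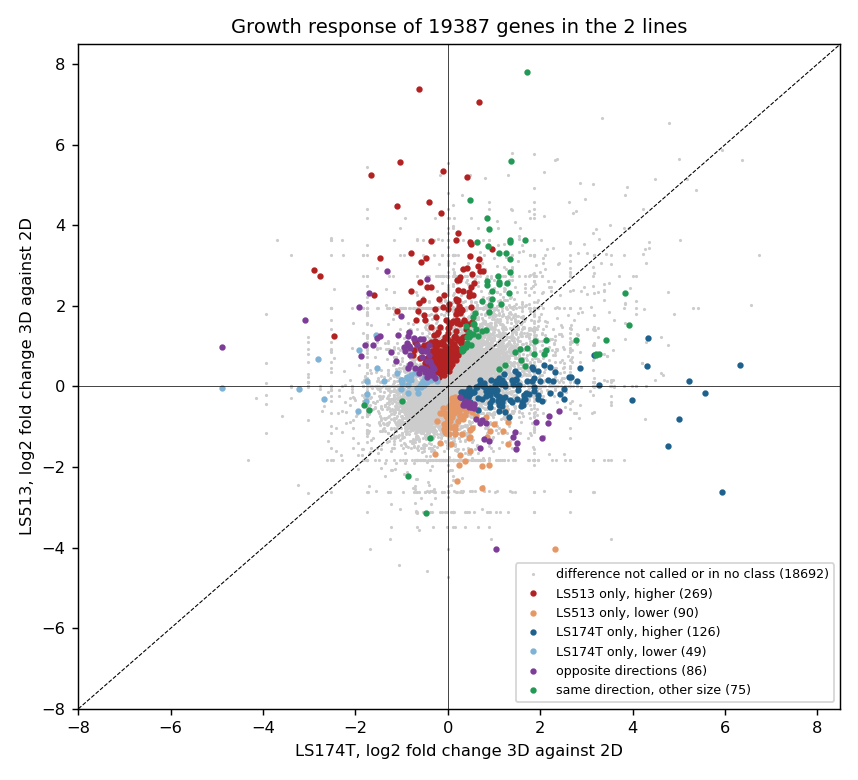
Each point is one of the 19387 genes tested, with the log2 fold change of 3D against 2D in LS174T on the horizontal axis and in LS513 on the vertical axis, coloured by the class of its response, and the dashed line marks equal responses. The 269 LS513-only rising genes lie along the upper part of the vertical axis, the 126 LS174T-only rising genes along the right of the horizontal axis, and the 86 genes with opposite directions in the upper left and lower right.

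Without LS174T 3D replicate 2, 695 differences were called, 557 of them among the 701. The classes then held 322 and 117 LS513-only genes and 93 and 32 LS174T-only genes, rising and falling respectively. Among the falling classes, LS174T-only held 105 genes without LS174T 3D replicate 3, 25 without LS174T 2D replicate 1 and 30 without LS174T 2D replicate 3. The 90 LS513-only falling genes became 49 without LS513 3D replicate 2, 53 without LS513 2D replicate 1 or replicate 2, and 57 without LS174T 2D replicate 1. For the rising classes, the LS513-only count was 170 without LS513 3D replicate 1 and 179 without LS513 2D replicate 2, and the LS174T-only count was 74 and 80 without LS174T 2D replicates 1 and 3. A line that was not called had not been shown to stay constant. Its 95% interval lay within a 1.5-fold change in either direction for 164 of the 269 and 60 of the 90 LS513-only genes, and for 66 of the 126 and 31 of the 49 LS174T-only genes.

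Of the genes that rose in LS513 only and met the naming criteria given with the processing, CDKN2B had the largest difference. CDKN2B encodes the CDK4 and CDK6 inhibitor p15 (ENSG00000147883, chromosome 9, 22002903 to 22009363 on the minus strand, GRCh38). It measured 0.901, 0.937 and 0.919 CPM in LS513 2D and 7.43, 10.6 and 5.51 CPM in LS513 3D, against 1.29, 1.08 and 1.42 CPM in LS174T 2D and 0.828, 0.510 and 1.17 CPM in LS174T 3D. The LS513 groups were fully apart, and those of LS174T overlapped. The log2 change was 3.09 ± 0.26 (SE) in LS513 and -0.58 ± 0.29 in LS174T (adjusted p = 0.156), a difference of 3.66 ± 0.39 (adjusted p = 6.17e-06) with a 95% interval from 2.86 to 4.47. HSD17B2, which oxidises estradiol to estrone, went from 1.26, 1.09 and 1.05 CPM to 15.5, 16.6 and 8.91 CPM in LS513 and stayed between 0.207 and 0.766 CPM in all 6 libraries of LS174T. SMPD3, which encodes the neutral sphingomyelinase 2, started at different levels in the lines. In LS513 it rose from 4.76, 5.95 and 7.13 CPM to 38.0, 37.2 and 23.2 CPM, into the range that LS174T already had in 2D (34.8, 35.4 and 28.9 CPM) and kept close to in 3D (30.2, 20.5 and 22.1 CPM). VWA7 rose from 4.73, 4.92 and 5.07 CPM to 28.7, 30.1 and 23.2 CPM in LS513, and lay between 0.399 and 1.11 CPM in LS174T. In each of these genes replicate 3 was the lowest of the LS513 3D libraries.

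RASA4CP and CIDEB met the same criteria with a limit on each. RASA4CP is a transcribed pseudogene with near-identical relatives, and reads that aligned more than once had been removed, so its difference of 3.05 ± 0.33 is uncertain in which copy it measures. CIDEB, a protein of lipid droplets and lipoprotein assembly, rose from 1.26, 0.755 and 1.20 CPM to 12.2, 15.2 and 6.76 CPM in LS513. In LS174T it measured 0.120, 0.626 and 0.504 CPM in 2D and 0.766, 1.06 and 0.645 CPM in 3D. These LS174T groups did not overlap either, but the rise did not pass the test (adjusted p = 0.164). The exons of CIDEB overlap those of NOP9 and LTB4R2 on the other strand over 100% of their length. The strand setting of the counting is not given in the sources used here. The call for CIDEB (difference 2.46 ± 0.63, adjusted p = 0.0288) was lost without any one of LS174T 2D replicates 2 and 3, LS174T 3D replicates 1 and 3, LS513 2D replicate 2 and LS513 3D replicates 1 and 2, where the adjusted p reached 0.169. It was also lost with limma voom, which lets the spread differ between groups, and with a block for replicate number. On only the 12 libraries of these lines, or on technical replicates e to h only, it was lost as well.

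Among the genes that fell in LS513 only, NR4A3, an orphan nuclear receptor of the immediate early type (ENSG00000119508, chromosome 9, 99821855 to 99866891 on the plus strand, GRCh38), went from 5.82, 5.35 and 4.31 CPM to 1.06, 0.710 and 0.936 CPM in LS513. In LS174T it was at 0.179 to 0.341 CPM in 2D and 0.276 to 0.510 CPM in 3D, which is a few counts above the limit of detection. The difference was -3.24 ± 0.54 (adjusted p = 0.000636). CHST13, a chondroitin sulfotransferase, fell from 7.18, 7.40 and 8.81 CPM to 2.25, 1.74 and 2.08 CPM, while its LS174T values of 0.269 to 0.415 CPM in 2D and 0.583 to 0.799 CPM in 3D did not overlap either and did not pass the test (adjusted p = 0.0855). OR51E1, a receptor of the olfactory family, fell from 7.95, 9.61 and 7.57 CPM to 1.97, 1.31 and 1.66 CPM in LS513, and its LS174T groups overlapped between 0.658 and 1.90 CPM. SERPINI1, which encodes neuroserpin, was at 75.7, 90.3 and 66.1 CPM in LS513 2D and 36.7, 27.4 and 33.5 CPM in 3D, against 13.7, 17.5 and 16.1 CPM in LS174T 2D and 21.7, 21.6 and 22.1 CPM in 3D, with a difference of -1.72 ± 0.26 (adjusted p = 0.000283). TENT5C, a noncanonical poly(A) polymerase, had a difference of -1.75 ± 0.29, and without LS174T 3D replicate 2 its rise in LS174T was called too, so that it moved to the opposite class. SBK1, a kinase gene, had a difference of -1.57 ± 0.43 (adjusted p = 0.0432). Its call was lost without any one of 8 libraries, with an adjusted p of up to 0.184. The exceptions were LS174T 3D replicate 2, LS513 2D replicates 1 and 2 and LS513 3D replicate 3. It was also lost with limma voom, with a block for replicate number and on only the 12 libraries of these lines. On technical replicates a to d only, or e to h only, it was lost as well.

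Genes that rose in LS174T only included secretory genes of the intestine. FCGBP, a protein of goblet cell mucus (ENSG00000275395, chromosome 19, 39863323 to 39934626 on the minus strand, GRCh38), went from 25.8, 40.2 and 37.1 CPM in LS174T 2D to 158, 292 and 136 CPM in 3D. In LS513 it measured 106, 102 and 107 CPM in 2D and 95.1, 97.4 and 62.9 CPM in 3D. The lowest LS174T 3D library was thus above every LS513 library, although LS174T started below LS513 in 2D. The log2 change was 2.51 ± 0.27 in LS174T and -0.31 ± 0.26 in LS513, and the difference was -2.81 ± 0.37 (adjusted p = 5.91e-05), and -2.41 without LS174T 3D replicate 2. SPINK4, a peptide secreted by goblet cells, rose from 6.16, 9.13 and 8.29 CPM to 48.0, 81.5 and 34.7 CPM in LS174T, and was between 162 and 269 CPM in all LS513 libraries. ANXA13, an annexin of intestinal epithelium, rose from 3.29, 3.55 and 3.32 CPM to 18.2, 21.95 and 14.6 CPM in LS174T and was between 18.6 and 30.5 CPM in LS513. GPR15LG, which encodes a ligand of the receptor GPR15, rose from 0.329, 1.02 and 1.13 CPM to 4.78, 5.40 and 5.19 CPM in LS174T, against 14.7 to 24.6 CPM in LS513. In SPINK4, ANXA13 and GPR15LG the level reached by LS174T in 3D was below or within the LS513 range, so the line that did not respond was the line with the higher level.

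FOS, a subunit of the transcription factor AP-1, rose in LS174T from 8.82, 9.87 and 7.14 CPM to 243, 242 and 36.2 CPM. Its LS513 values were 15.8, 17.4 and 22.02 CPM in 2D and 32.3, 50.3 and 45.3 CPM in 3D, which also did not overlap but did not pass the test (adjusted p = 0.111). LS174T 3D replicate 3 was far below the other libraries of its group, and the difference of -3.12 ± 0.76 (adjusted p = 0.0264) kept its call only without that library or without LS513 2D replicate 1, and was lost without any one of the other 10 libraries (adjusted p up to 0.0808). UGT2B17, an enzyme that conjugates androgens with glucuronic acid and has close paralogs, rose from 1.65, 3.04 and 2.87 CPM to 13.3, 21.7 and 13.3 CPM in LS174T and overlapped between conditions in LS513. Its difference of -2.44 ± 0.55 (adjusted p = 0.02) was lost without LS174T 2D replicate 1, LS174T 3D replicate 2, LS513 2D replicate 3 or LS513 3D replicate 2 or 3 (adjusted p up to 0.0646).

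Of the genes that fell in LS174T only and met the naming criteria, CEACAM6 had the largest difference. CEACAM6 is a cell adhesion glycoprotein of colonocytes (ENSG00000086548, chromosome 19, 41750977 to 41772208 on the plus strand, GRCh38). It went from 66.1, 34.6 and 61.0 CPM to 17.3, 18.7 and 19.99 CPM in LS174T, and measured 862, 841 and 762 CPM in LS513 2D and 1131, 1062 and 1170 CPM in LS513 3D. The LS513 groups did not overlap, but the rise did not pass the test (log2 change 0.45 ± 0.21, adjusted p = 0.13), and the difference was 1.98 ± 0.31 (adjusted p = 0.000317). ECM1, a secreted matrix protein, fell from 29.1, 12.5 and 15.5 CPM to 5.79, 5.43 and 5.74 CPM in LS174T and was between 133 and 193 CPM in LS513. SH3TC2 fell from 13.6, 7.02 and 8.92 CPM to 3.31, 2.59 and 2.80 CPM in LS174T and was between 32.9 and 43.2 CPM in LS513. In these 3 genes LS174T 2D replicate 1 held the highest value of its group. PLCE1, a phospholipase C that responds to RAS, had the higher 2D level in LS174T, at 21.0, 16.7 and 16.8 CPM, and fell to 9.57, 5.14 and 10.7 CPM, whereas LS513 was at 8.79 to 10.7 CPM in 2D and 11.5 to 13.4 CPM in 3D. CLU, which encodes the extracellular chaperone clusterin, had a difference of 1.33 ± 0.27 and KIF21B, a kinesin, one of 1.15 ± 0.24. With limma voom the calls for ECM1 and KIF21B were lost. Without LS174T 3D replicate 2 the rise of CLU in LS513 was called as well.

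**Figure D2:**
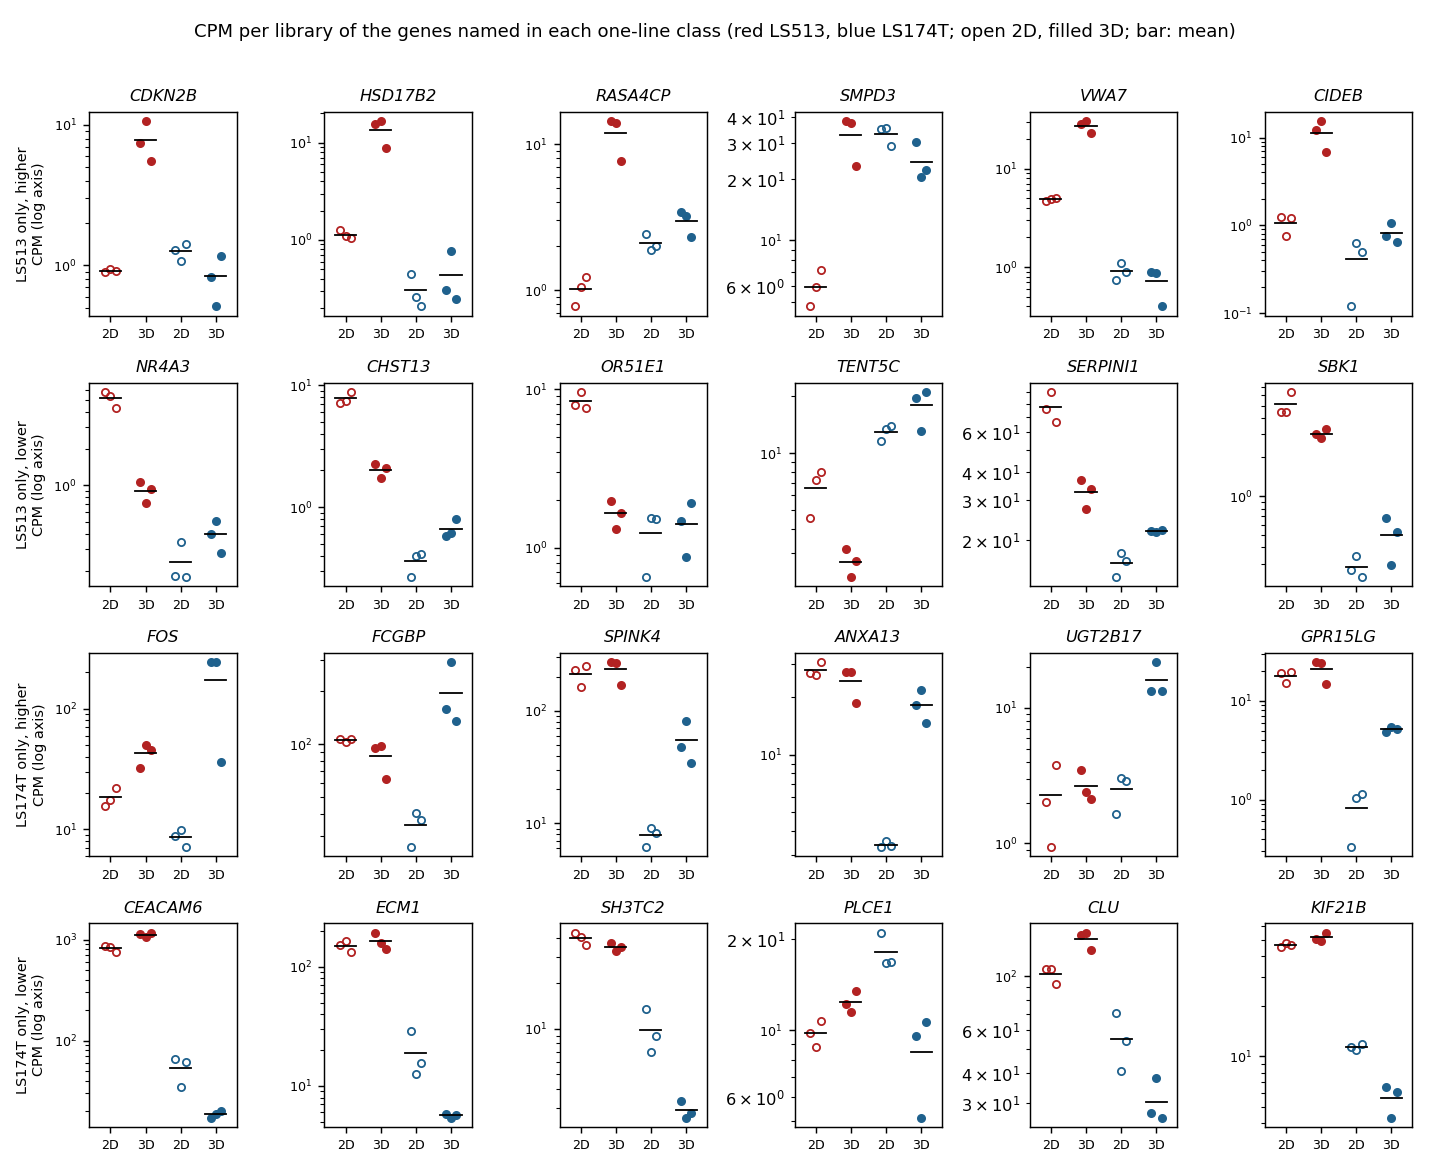
CPM in each library, on a logarithmic axis, for the 6 named genes of each LS513-only or LS174T-only class, with open symbols for 2D, filled symbols for 3D, red for LS513, blue for LS174T and a bar at the mean of 3 libraries. In the upper 2 rows the red groups part between 2D and 3D. The blue groups there overlap except for CIDEB, CHST13 and SERPINI1, where they lie apart. In the lower 2 rows the blue groups part, and the red groups also lie apart for FOS, FCGBP, CEACAM6, PLCE1, CLU and KIF21B. For FOS, 1 LS174T 3D library, at 36.2 CPM, lies far below the rest of its group.

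Before growth conditions differed, the lines already differed in these genes. In 2D, LS513 had the higher mean CPM in 46% of all genes tested, in 75.4% of the 126 LS174T-only rising genes and in 69.4% of the 49 LS174T-only falling genes. In 3D, LS513 was the higher line in 43.7% of the rising and 89.8% of the falling genes. For the 269 LS513-only rising genes the share went from 55.8% in 2D to 82.2% in 3D. The 2D libraries enter both the level and the response, so these shares are a description of the classes and not a separate result.

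Of 26 tested goblet and secretory genes, 18 rose in LS174T (beside 13.1% of all genes tested) and 6 in LS513 (beside 13.7%), and a difference was called for 12, of which 11 had the higher response in LS174T (background 1.39%). Of the 12, 10 rose in LS174T only. The median log2 change of the list was 1.31 in LS174T and 0.15 in LS513, beside medians of 0.02 and 0.00 over all genes tested. ATOH1, the transcription factor that commits cells to the secretory lineage, went from 3.53, 5.63 and 3.91 CPM to 11.8, 13.3 and 15.5 CPM in LS174T, and from 8.33, 9.73 and 12.2 CPM to 6.13, 7.28 and 8.49 CPM in LS513. The LS174T groups were apart and the LS513 groups overlapped, with a difference of -2.10 ± 0.27 (adjusted p = 3.60e-05). GFI1, which acts downstream of ATOH1, had a difference of -1.94 ± 0.31, and CREB3L1, a membrane-bound transcription factor of secretory cells, one of -1.68. TFF3, the goblet cell trefoil factor, rose in LS174T from a mean of 50.6 to 253 CPM, and was at 721 CPM in 2D and 925 CPM in 3D in LS513. SPDEF, a transcription factor of goblet cell maturation, rose in both lines, by 2.78 in LS174T and 1.15 in LS513 on the log2 scale. FOXA3, AGR3, RETNLB and GALNT12 were the other members called in LS174T only, beside FCGBP and SPINK4 above. GALNT12 was at 0.0392 CPM in LS174T 2D, under the limit of detection.

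TFF1 was the member that went the other way, with a mean of 36.1 CPM in LS513 2D and 74.7 CPM in 3D against 19.5 and 14.4 CPM in LS174T. Its call was lost without any one of LS174T 2D replicates 1 and 3, LS174T 3D replicates 1 and 3, LS513 2D replicate 3 and LS513 3D replicates 1 and 2. MUC2, the main gel-forming mucin of the colon, rose in LS174T (50.9 to 147 CPM, log2 change 1.53, adjusted p = 0.0058), and its difference from LS513 (10.8 to 21.3 CPM, log2 change 0.99) did not pass the test (adjusted p = 0.713). KLF4 rose in both lines by 1.22 in LS513 and 1.14 in LS174T. Without LS174T 3D replicate 2 the count of called members was again 12, with 10 in the LS174T-only classes, and it ranged from 9 to 12 over the libraries left out. All 11 members with the higher response in LS174T had the lower 2D mean in LS174T, and 7 of the 11 still did in 3D.

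Of 25 tested absorptive genes, 16 rose in LS513 (beside 13.7% of all genes tested) and 11 in LS174T (beside 13.1%). A difference was called for 10, of which 6 had the higher response in LS513 (beside 2.22%) and 4 the lower (beside 1.39%). MUC17, a transmembrane mucin of the brush border, rose in LS513 only, from a mean of 5.93 to 47.4 CPM, and CEACAM5 did so from 385 to 844 CPM, while LS174T had 2.68 to 4.23 CPM and 50.3 to 41.4 CPM. KRT20, the keratin of mature colonocytes, rose in both lines. It went from 472, 397 and 512 CPM to 1382, 1366 and 1253 CPM in LS513 and from 0.658, 1.05 and 0.741 CPM to 12.8, 15.2 and 9.64 CPM in LS174T, a response that was larger in LS174T by 2.39 ± 0.27 on the log2 scale (adjusted p = 9.38e-06), at a level that stayed far below that of LS513. ANPEP, the brush border aminopeptidase N, rose in LS174T from a mean of 0.547 to 4.90 CPM.

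Among Wnt targets and crypt stem cell genes, 13 of 25 tested members fell in LS513 (background 9.9%) and 5 in LS174T (9.15%). A difference was called for 5, all with the lower response in LS513 (beside 1.39%). EPHB3, a receptor of the crypt base, fell from 285, 308 and 298 CPM to 192, 118 and 113 CPM in LS513 and measured 305, 374 and 326 CPM in LS174T 2D and 435, 585 and 373 CPM in LS174T 3D, where the higher values of 3D did not pass the test (adjusted p = 0.0557). LGR5, the stem cell receptor, fell in both lines, from a mean of 13.04 to 2.77 CPM in LS513 and from 32.1 to 17.7 CPM in LS174T. SMOC2, a marker of the LGR5 stem cell, fell from 1.67, 1.15 and 0.982 CPM to 0.106, 0.178 and 0.139 CPM in LS513, a level of a few counts, and from 100, 118 and 119 CPM to 78.8, 77.2 and 85.6 CPM in LS174T. CD44, an adhesion receptor, changed by -0.26 in LS513 and by 0.27 in LS174T on the log2 scale, and CDCA7 fell more in LS513. Without LS174T 3D replicate 2 the falls of SMOC2 and CDCA7 in LS174T were not called, so that both moved to the LS513-only class. The count of 5 became 3 without LS513 3D replicate 2 and 6 without LS174T 3D replicate 2.

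**Figure D3:**
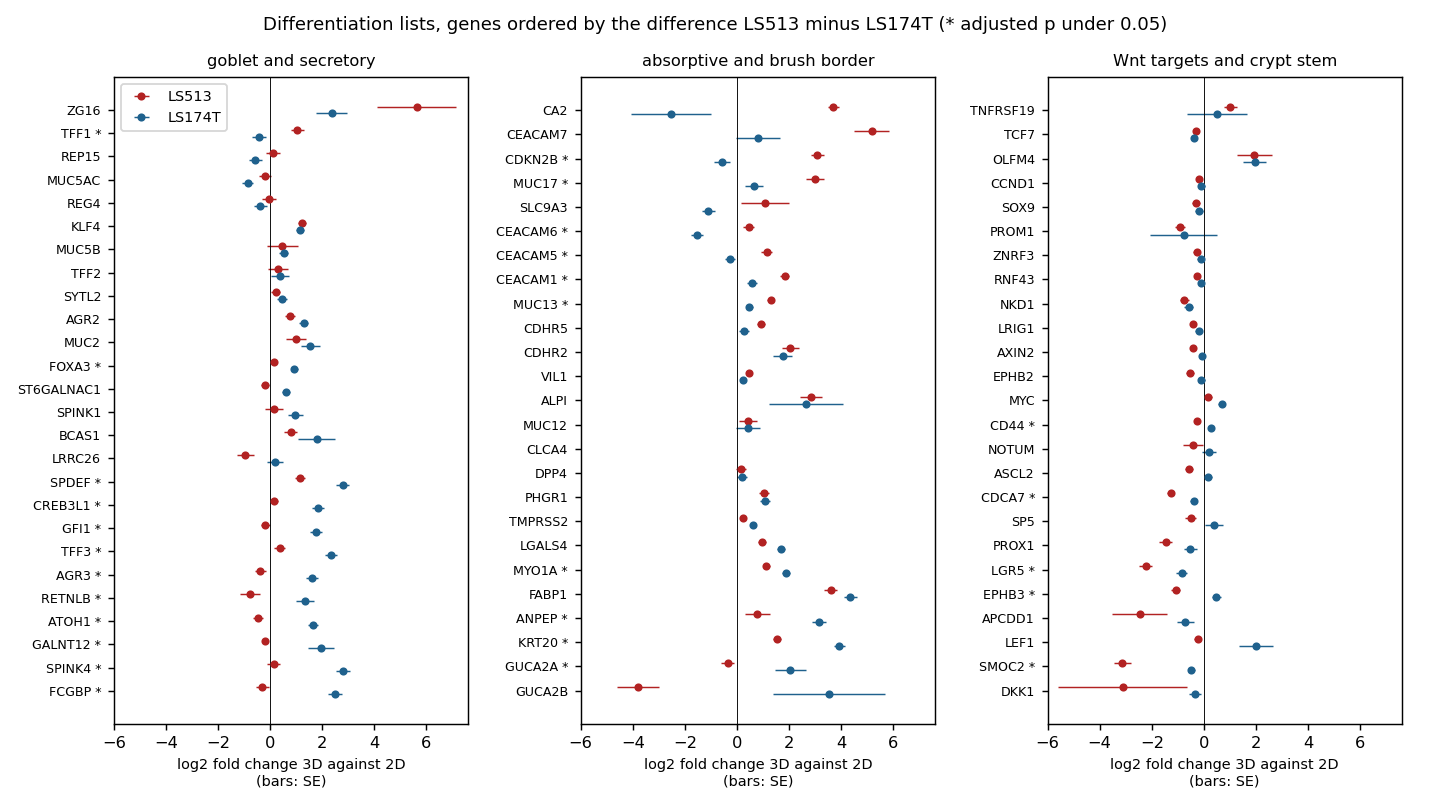
Log2 fold change of 3D against 2D with its standard error for each tested member of the goblet, absorptive and Wnt or stem cell lists, red for LS513 and blue for LS174T, ordered by the difference between the lines, with an asterisk where that difference was called and no point where a line had no counts. In the goblet list most of the lower rows show blue points between 1 and 3 beside red points closer to 0, whereas the absorptive list holds asterisks at both ends.

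Amino acid stress genes are induced by the transcription factor ATF4. Of 32 tested members 18 rose in LS513 (beside 13.7% of all genes tested) and 8 in LS174T (beside 13.1%), and 8 of 9 called differences were higher in LS513 (background 2.22%), 7 of them in genes that rose in LS513 only. SESN2, a sestrin that restrains mTORC1, rose from 9.81, 9.82 and 9.50 CPM to 48.5, 52.8 and 28.0 CPM in LS513, whereas LS174T had 25.6, 23.9 and 24.6 CPM in 2D and 31.3, 26.8 and 28.7 CPM in 3D. The difference was 1.92 ± 0.23 (adjusted p = 2.27e-05), and the LS174T change was 0.23 ± 0.16 (adjusted p = 0.33). CHAC1, which degrades glutathione, rose from a mean of 4.89 to 23.1 CPM in LS513 and was at 11.03 and 15.2 CPM in LS174T. SLC7A11, the cystine importer, rose from 25.4 to 53.8 CPM in LS513, against 51.0 and 40.3 CPM in LS174T. CTH, PSPH and SLC6A9, which act in cysteine, serine and glycine supply, and WARS1 were the other LS513-only rising members. SHMT2, the mitochondrial serine hydroxymethyltransferase, was the exception, since it rose in LS174T only, from 325, 307 and 300 CPM to 632, 762 and 637 CPM, while LS513 stayed between 259 and 286 CPM.

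The stress factors themselves were not called as different. DDIT3, which encodes CHOP, rose in both lines, from 4.29 to 32.1 CPM in LS513 and from 4.53 to 10.9 CPM in LS174T, with a difference of 1.64 ± 0.52 (adjusted p = 0.0877), and its LS513 3D libraries held 27.1, 45.0 and 15.01 CPM before scaling. ATF3 and TRIB3 rose in both lines too, with differences of 0.46 (adjusted p = 0.768) and 0.32 (adjusted p = 0.505). The number of called ATF4 list members ranged from 8 to 12 over the libraries left out, with 8 without LS513 3D replicate 2 and 12 without LS174T 3D replicate 2, and without LS513 3D replicate 2 the median difference of the list fell from 0.39 to 0.26.

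Targets of the antioxidant factor NRF2 included 15 of 26 members rising in LS513 (beside 13.7% of all genes tested) and 7 in LS174T (beside 13.1%), and all 6 called differences were higher in LS513 (beside 2.22%). FTH1, the ferritin heavy chain, went from 1377, 1183 and 1690 CPM to 2630, 2997 and 2215 CPM in LS513 and from 1930, 2078 and 2299 CPM to 1446, 2067 and 1434 CPM in LS174T, where the lower values did not pass the test (adjusted p = 0.0844). That fall was called without LS174T 3D replicate 2, which put FTH1 in the opposite class. Its exons overlap BEST1 on the other strand over 62.4% of their length. ABCC2, an export pump for conjugates, moved in opposite directions, from 0.772, 0.725 and 0.760 CPM to 1.02, 2.03 and 2.11 CPM in LS513 and from 18.2, 12.6 and 15.4 CPM to 8.55, 9.88 and 11.98 CPM in LS174T. Without LS174T 3D replicate 2 the fall of ABCC2 in LS174T was not called, which put it in the LS513-only rising class. Other called members were ME1, TXNRD1 and SLC7A11, which is also in the ATF4 list. HMOX1, whose high value in 1 LS513 3D library is given above, did not pass the test for a difference (1.57 ± 0.70, adjusted p = 0.288).

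Inflammatory genes gave 10 called differences among 37 tested members (beside 3.62% of all genes tested), 9 of them higher in LS513 (beside 2.22%). In each line 12 members rose, beside 13.7% of all genes in LS513 and 13.1% in LS174T. IL1RN, the interleukin-1 receptor antagonist, rose from 36.7, 26.6 and 42.1 CPM to 190, 199 and 162 CPM in LS513, and stayed between 0.825 and 1.75 CPM in LS174T, with a difference of 2.16 ± 0.35 (adjusted p = 0.000549), and its call was lost with limma voom (adjusted p = 0.0592). PLAUR, the urokinase receptor, rose from 34.9, 31.7 and 34.02 CPM to 86.3, 87.1 and 73.4 CPM in LS513, against 8.91 to 15.1 CPM in LS174T. CXCL16, CD55, CCL20 and DUOX2 were also LS513-only rising genes, the last of these at 0.0101 CPM in LS513 2D, under the limit of detection, and 0.692 CPM in 3D. TNFAIP2 rose in LS513 from 0.0644, 0.0302 and 0.158 CPM, a few counts, to 0.669, 0.746 and 0.589 CPM, while LS174T had 4.22 to 8.17 CPM, and its call was lost on technical replicates e to h only. PTGS2, the inducible cyclooxygenase, was the member with the lower response in LS513, at means of 0.888 and 0.303 CPM in LS513 and 2.46 and 4.00 CPM in LS174T. The count was 7 to 11 over the libraries left out.

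Among 59 tested interferon-stimulated genes, 4 had a called difference, beside 3.62% of all genes tested. IRF9, the DNA-binding subunit of the interferon response complex ISGF3, rose from 10.2, 10.1 and 11.4 CPM to 19.4, 22.8 and 15.1 CPM in LS513 and was between 4.05 and 5.86 CPM in LS174T. Its exons overlap another gene model on the same strand over 48.4% of their length. SAMD9, DDX60 and PARP9 were the other 3. IRF9, SAMD9 and DDX60 were named by rule as the members with the smallest p of the difference, and PARP9 after its values were seen. SAMD9 moved, without LS174T 3D replicate 2, from the opposite to the LS513-only rising class. With limma voom the count was 0, with the DESeq2 test it was 4, and 10 members had an unadjusted p under 0.05 with edgeR.

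**Figure D4:**
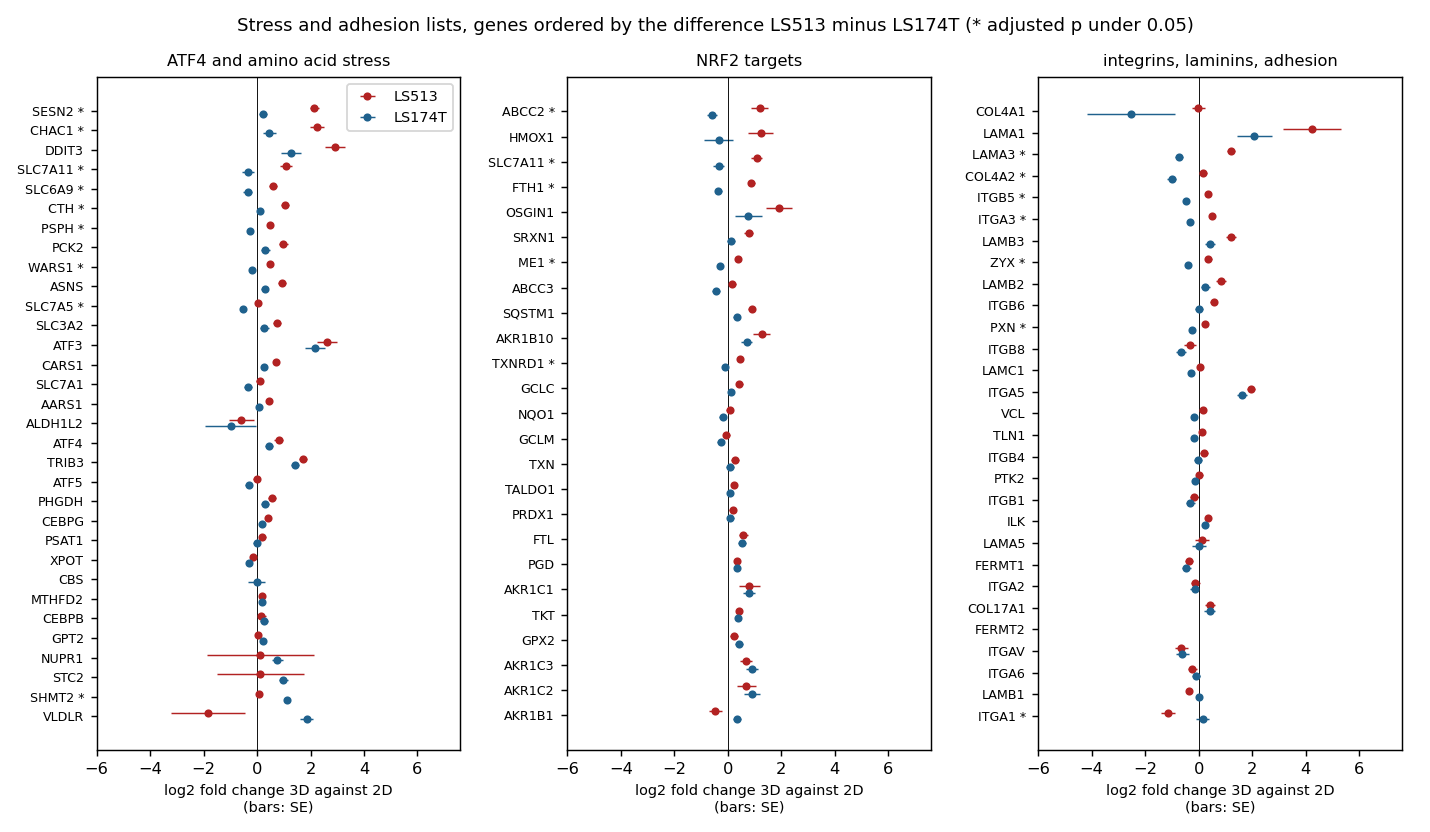
Log2 fold change of 3D against 2D with its standard error for the tested members of the ATF4, NRF2 and adhesion lists that are reported, red for LS513 and blue for LS174T, ordered by the difference between the lines, with an asterisk where that difference was called and no point where a line had no counts. In the ATF4 list 8 of the 9 asterisks are on genes with the red point to the right of the blue one, and SHMT2 is the exception near the bottom.

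Of 30 tested integrins, laminins and focal adhesion genes, 11 rose and 2 fell in LS513 (beside 13.7% and 9.9% of all genes tested), and 2 rose and 7 fell in LS174T (beside 13.1% and 9.15%). A difference was called for 8, with 7 higher in LS513 (beside 2.22%) and 4 in the opposite class (beside 0.444%). LAMA3, the laminin chain of the epithelial basement membrane, went from 41.7, 41.6 and 37.6 CPM to 94.6, 95.1 and 88.5 CPM in LS513 and from 19.3, 15.4 and 17.5 CPM to 8.92, 12.1 and 10.4 CPM in LS174T. No groups overlapped in either line, and the difference was 1.94 ± 0.23 (adjusted p = 1.82e-05). ITGA3, the alpha chain of a laminin receptor, went from 213, 195 and 204 CPM to 300, 292 and 270 CPM in LS513 and from 60.2, 49.3 and 53.1 CPM to 42.7, 46.2 and 40.4 CPM in LS174T. ITGB5, a vitronectin receptor chain, and ZYX, the focal adhesion protein zyxin, moved in the same opposite way, with differences of 0.84 ± 0.13 and 0.76. COL4A2, a basement membrane collagen, fell in LS174T only, from a mean of 4.70 to 2.34 CPM. The list count was 5 to 8 over the libraries left out. LS513 had the higher 2D mean in all 8 called members.

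Matrix proteases and their inhibitors gave 7 called differences among 26 members, all higher in LS513 (beside 2.22% of all genes tested). KLK6, a kallikrein protease, went from 42.9, 44.7 and 45.0 CPM to 99.2, 95.01 and 76.1 CPM in LS513 and from 13.3, 12.4 and 16.5 CPM to 10.3, 12.1 and 9.37 CPM in LS174T, with a difference of 1.44 ± 0.18 (adjusted p = 3.24e-05). SERPINB5, the protease inhibitor maspin, rose from 90.7, 82.8 and 88.4 CPM to 118, 115 and 119 CPM in LS513 and fell from 51.2, 45.8 and 46.4 CPM to 30.8, 31.7 and 31.7 CPM in LS174T. TIMP1 and TIMP2, inhibitors of metalloproteinases, and SPINT1, an inhibitor of serine proteases, rose in LS513 only, and SERPINE2 fell in LS174T only. Among ion transport genes, ANO1, a calcium-activated chloride channel, went from 36.4, 30.4 and 47.7 CPM to 67.6, 61.9 and 66.4 CPM in LS513. In LS174T it went from 150, 121 and 124 CPM to 83.3, 57.6 and 83.8 CPM, so that lines that differed in 2D had similar ranges in 3D. Without LS174T 3D replicate 2, ANO1 and KCNN4, another gene of this list, were both in the opposite class. With all libraries that class held 1 member of the list.

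Of 38 tested genes induced by low oxygen, 32 rose in LS513 (beside 13.7% of all genes tested) and 36 in LS174T (beside 13.1%), with medians of 1.20 and 1.38. A difference was called for 6 (beside 3.62%), and 5 of them were in genes that rose in both lines. IGFBP3, a binding protein of insulin-like growth factors, had a difference of 6.09 ± 0.54 (adjusted p = 6.17e-06). It went from 0.0644, 0.0604 and 0.158 CPM, a few counts, to 25.5, 28.2 and 12.02 CPM in LS513, and from 29.7, 36.5 and 29.7 CPM to 108, 111 and 96.0 CPM in LS174T. DDIT4, an inhibitor of mTORC1 whose exons overlap another gene on the other strand over 41.2% of their length, rose more in LS513, from 9.40, 10.7 and 10.3 CPM to 144, 137 and 99.2 CPM, than in LS174T, where it went from 41.4, 56.4 and 46.3 CPM to 113, 127 and 218 CPM. PFKFB3, which makes the activator of phosphofructokinase, was the member that rose in LS174T only, from 55.2, 47.1 and 50.1 CPM to 117, 79.9 and 119 CPM, while LS513 stayed between 47.7 and 60.4 CPM (difference -1.24 ± 0.21, adjusted p = 0.000615). PFKFB4, an enzyme of the same family, rose in both lines and by 0.97 more in LS174T.

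Of 25 sterol synthesis and uptake genes, 23 rose in each line (beside 13.7% of all genes tested in LS513 and 13.1% in LS174T). The median log2 change was 1.29 in LS513 and 0.73 in LS174T, and the LS513 response was the larger in 24 of 25 members, of which 5 were called (beside 2.22% of all genes tested) and none was called in 1 line only. INSIG1, the sterol-regulated retention factor of SREBP processing, went from 121, 166 and 233 CPM to 1106, 980 and 970 CPM in LS513 and from 165, 231 and 223 CPM to 504, 414 and 594 CPM in LS174T, with a difference of 1.27 ± 0.25 (adjusted p = 0.00289). HMGCS1, ACAT2, FDFT1 and MVD, enzymes of the pathway, were the others. On only the 12 libraries of these lines the count was 1, with INSIG1 the only member called. The count of 5 fell to 1 without LS513 2D replicate 1 or LS513 3D replicate 1, to 2 without LS174T 2D replicate 2 or 3 or LS513 3D replicate 2, and to 3 without LS174T 3D replicate 1 or LS513 2D replicate 2, and was 7 without LS513 2D replicate 3 or LS513 3D replicate 3. Among fatty acid genes, ACSS2, which makes acetyl-CoA from acetate, rose from 70.1, 82.1 and 97.5 CPM to 690, 650 and 441 CPM in LS513 and from 50.2, 60.0 and 58.0 CPM to 140, 147 and 142 CPM in LS174T. FADS2, the delta-6 desaturase, rose in LS174T only, from 351, 445 and 457 CPM to 679, 707 and 717 CPM, against 4.96 to 7.41 CPM in LS513. LPIN1, ME1 and ACACB rose in LS513 only.

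Of 43 S phase genes 35 fell in LS513 (beside 9.9% of all genes tested) and 23 in LS174T (beside 9.15%), and 3 had a called difference (beside 3.62%). Of 54 G2/M genes 36 fell in LS513 and 18 in LS174T, and none had a called difference with edgeR or with the DESeq2 test, with 4 at an unadjusted p under 0.05 with edgeR. The medians of the G2/M list were -0.45 in LS513 and -0.22 in LS174T, and the difference was positive in 7 of 54 members. GMNN, the licensing inhibitor geminin, was in the opposite class, at 55.4, 53.9 and 51.9 CPM in LS513 2D and 36.6, 40.4 and 40.6 CPM in 3D, against 50.9, 50.2 and 50.3 CPM and 54.7, 76.1 and 59.6 CPM in LS174T. Its rise in LS174T was not called without LS174T 3D replicate 2, which put GMNN in the LS513-only falling class. DLL4, a Notch ligand, was in the opposite class too, falling from 23.7, 28.6 and 20.9 CPM to 14.6, 9.77 and 14.7 CPM in LS513 and rising from 40.3, 46.8 and 47.1 CPM to 74.0, 81.7 and 61.6 CPM in LS174T. ETV4, a target of RAS and MAPK signalling, rose in LS174T only, from 111, 118 and 107 CPM to 259, 248 and 231 CPM, while LS513 stayed between 60.2 and 74.6 CPM. ATOH8, a target of BMP signalling, rose in LS174T only as well, from 1.08, 1.05 and 0.770 CPM to 3.34, 4.41 and 3.56 CPM. No difference was called among 9 enteroendocrine genes or the 13 protein-coding mitochondrial genes with edgeR or DESeq2, and 0 of either list had an unadjusted p under 0.05 with edgeR. Only 1 of the 9 enteroendocrine genes had over 3 counts in every library of both lines, so a difference in the others could be missed. In each of the lists of glycolysis, lipid oxidation, p53 targets, epithelial-mesenchymal transition, YAP targets, actin and SRF, BMP and TGF-beta, the unfolded protein response, heat shock, metallothioneins, keratins and junctions, antigen presentation and the clock, 1 to 3 were called, beside 3.62% of all genes tested.

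Purinergic genes, the subject of the study, had 12 of 22 members that could be tested, and 1 called difference, beside 3.62% of all genes tested. P2RY2, a receptor for ATP and UTP, measured 14.9, 14.95 and 14.86 CPM in LS513 2D and 28.5, 23.1 and 24.7 CPM in 3D, and between 3.06 and 4.70 CPM in the 6 LS174T libraries. The difference was 0.79 ± 0.21 (adjusted p = 0.031), and of the 12 fits that left out 1 library it was called only in those without LS174T 3D replicate 3 or LS513 3D replicate 2 or 3 (adjusted p up to 0.106 without the others). It was also lost with limma voom (adjusted p = 0.134) and on technical replicates a to d only (adjusted p = 0.107). P2RX4, an ATP-gated channel, rose in both lines, from 14.3, 13.7 and 14.7 CPM to 30.5, 33.9 and 25.5 CPM in LS513 and from 5.68, 6.80 and 6.25 CPM to 8.98, 10.97 and 7.68 CPM in LS174T, and the difference of 0.52 (95% interval 0.06 to 0.97) did not pass the adjusted test (adjusted p = 0.253). For ADORA2B, the adenosine receptor with the highest level here, the interval of the difference was -0.31 to 0.29, for NT5E, which makes adenosine from AMP, it was -0.62 to 0.30, for PANX1, the pannexin channel, -0.35 to 0.50, for P2RY1 -0.31 to 1.01 and for P2RY11, which shares 54.2% of its exon length with other models on its strand, -0.49 to 0.56. P2RX5 was at 10.5 to 14.2 CPM in LS174T and had no counts in LS513. P2RX6, P2RX7, ADORA1 and ADORA2A were at most at 1.62 CPM in every library, and none had a called difference. The 10 members that were not tested did not pass the filter on low counts.

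Genes of the opposite class with the largest differences under the naming rule fell in LS513 and rose in LS174T. ACSL6, a long-chain acyl-CoA synthetase, went from 28.9, 26.9 and 23.0 CPM to 8.88, 9.24 and 8.70 CPM in LS513 and from 0.508, 0.398 and 0.356 CPM to 1.13, 1.35 and 1.04 CPM in LS174T, with a difference of -3.03 ± 0.30 (adjusted p = 6.17e-06). CDHR1, a cadherin-related protein, went from 169, 165 and 155 CPM to 111, 90.2 and 91.5 CPM in LS513 and from 0.120, 0.313 and 0.296 CPM to 1.13, 0.984 and 1.26 CPM in LS174T. CCL24, the chemokine eotaxin-2, and KLK3, a kallikrein protease, had differences of -3.03 ± 0.38 and -3.08 ± 0.45. In ACSL6, CCL24 and CDHR1 the line that rose stayed far below the line that fell.

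Some genes were called in 1 line while the other line had at most 3 counts in all 6 of its libraries. Of the genes called in LS513, 153 that rose and 37 that fell were of this kind, and of those called in LS174T 156 that rose and 62 that fell. A difference was called for 1, 1, 2 and 0 of these, so they are listed apart and not as different responses. A fall in the other line could not be seen at this depth. A rise could have been seen, but every library of the other line stayed at or below 3 counts. IGFBP1, another binding protein of insulin-like growth factors, rose from 0.483, 0.574 and 0.317 CPM to 27.1, 32.8 and 16.5 CPM in LS513, C11orf86 from 0.740, 0.695 and 0.982 CPM to 22.3, 30.2 and 15.6 CPM, and CA2, a cytosolic carbonic anhydrase, from 1.19, 0.695 and 0.634 CPM to 12.5, 11.2 and 8.94 CPM. PGM5, ROR1, a receptor of the Wnt5a type, and ARHGAP22 fell in LS513, by 1.48, 1.33 and 1.14 on the log2 scale. In LS174T, OTC, the ornithine transcarbamylase of the urea cycle, rose from 1.73, 2.90 and 2.55 CPM to 23.4, 32.6 and 24.2 CPM, RBP3 from 0.237 to 0.284 CPM to between 1.72 and 3.32 CPM, and L1TD1, an RNA-binding protein, from 0.150, 0.711 and 0.504 CPM to 2.94, 3.76 and 2.92 CPM. SMOC1, a secreted calcium-binding protein, fell there from between 8.28 and 9.72 CPM to between 2.41 and 2.88 CPM, as did ZNF532 and RHOT1P3, a pseudogene whose reads could come from its parent gene.

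The other lines of the series, HT29 and HCT116, were used to place the classes. In HT29 40.7% of all genes tested were called in either direction. Of the 126 LS174T-only rising genes, 79 rose in HT29 (62.7%, beside 21.1% of all genes tested) and 25 in HCT116 (19.8%, beside 16.8%), and 2 fell in HT29 and 3 in HCT116. Of the 269 LS513-only rising genes, 84 rose in HT29 (31.2%) and 121 in HCT116 (45%), and 58 fell in HT29 and 5 in HCT116. Of the 49 LS174T-only falling genes, 20 fell in HT29 (40.8%, beside 19.6%) and 5 in HCT116 (10.2%, beside 12.3%), and 5 rose in HT29 and 8 in HCT116. Of the 90 LS513-only falling genes 17 fell in HT29 (18.9%) and 14 in HCT116 (15.6%), and 20 rose in HT29 and 6 in HCT116. In HT29, SPINK4 rose by 4.32, ATOH1 by 4.18 and TFF3 by 3.33 on the log2 scale, and in HCT116 IRF9 rose by 3.28 and IL1RN by 2.01. FLNA, an actin crosslinker that fell in LS174T only, fell by 3.22 in HT29 as well. Its call as a difference between LS513 and LS174T (0.91 ± 0.22) was lost without LS174T 2D replicate 1 (adjusted p = 0.0637 without it). It was also lost with limma voom and with a block for replicate number. The fits share 1 estimate of spread across lines but no libraries between lines.

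**Figure D5:**
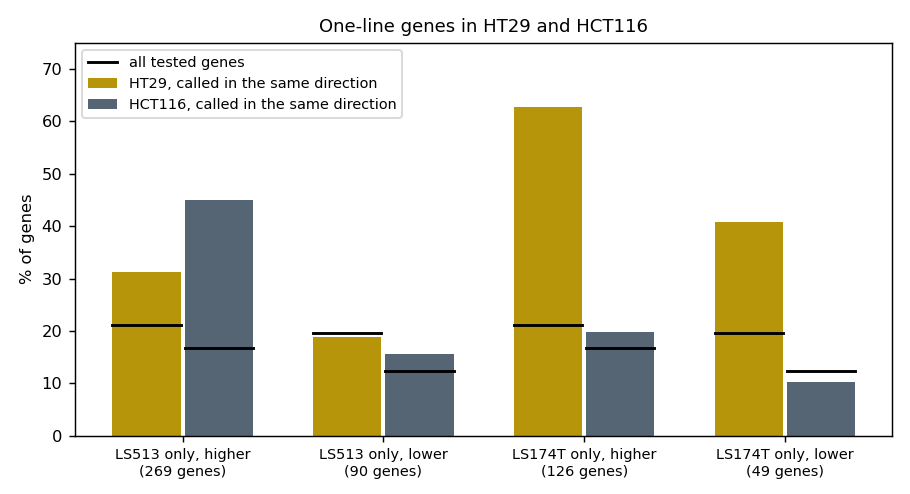
Bars give the percentage of genes in each LS513-only or LS174T-only class that were called in the same direction in HT29 (yellow) and in HCT116 (grey), and black lines give that percentage for all genes tested. The LS174T-only rising genes reach 62.7% in HT29 beside 19.8% in HCT116, and the LS513-only rising genes reach 31.2% and 45%.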

How the data were processed

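RNA of LS513, LS174T, HT29 and HCT116 cells in 2D and 3D was sequenced from poly(A)-selected, stranded libraries. Per the study's methods, the authors trimmed reads (Trim Galore 0.4.1), aligned them (STAR), removed multiply aligned reads and counted the remainder on exons with HTSeq 0.5.3. The submitters' notes list hg19, the methods an Ensembl annotation, and the strand setting of the counting is not given in the sources used here. The deposited values are counts, 1 file for each sequenced technical replicate, and 191 files were summed to 24 libraries, with 8 per library except 1 HT29 3D library with 7. Of 58243 identifiers, 57980 were found in GENCODE 29 (GRCh38), from which coordinates and overlaps were taken.

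Counts were filtered with filterByExpr, scaled by TMM and fitted over all 8 groups with edgeR 4.0.16 (robust quasi-likelihood, R 4.3.3), since the groups then share 1 estimate of spread. The contrast was the difference of responses, with Benjamini-Hochberg adjustment over 19387 genes and a threshold of 0.05. Log2 values are given ± SE, and CPM are TMM-scaled except for the library checks. DESeq2 1.42.0 and limma 3.58.1 (voom), other filters, thresholds, subsets of the technical replicates, a replicate block and leaving out each library were alternatives. On simulated counts for 19144 genes, edgeR recovered 173 of 200 genes changed in this contrast (73 of 100 at a log2 change of 1, all 100 at 2) with 11 false calls. The changed genes were drawn only from genes well counted in 2D in both lines. Every group was given the same spread per gene, and no library stood apart. The simulation therefore does not cover genes of few counts, groups of unequal spread or a library that stands apart. Deviations from the group mean correlated weakly between 2D and 3D libraries of the same replicate number. With 3 libraries per group this cannot decide whether the numbers pair libraries, and the labels do not say.

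The members and the 33 gene lists were chosen with earlier results of these data known. Named genes were the 6 per LS513-only or LS174T-only class with the largest difference (over 3 counts in all 12 libraries, at least 5 CPM, no overlap between conditions), 4 of the opposite class, 3 per line and direction among genes with at most 3 counts in the other line, up to 3 per list by p, and all tested purinergic genes. Other list members were named after their values were seen. Counting limits cover counting error only. Some genes are not reported here.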

Additional observations from a re-analysis of the deposited data

Results flagged for a closer look

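Each result here is a difference between LS513 and LS174T in the response to 3D growth that passed edgeR's test of that difference. In all, 701 genes did so. The values are log2 differences (LS513 minus LS174T) for 84 named genes among them, and a positive value means the higher response in LS513.

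Among LS513-only genes the differences were 3.66 for CDKN2B, 3.11 for HSD17B2, 3.05 for RASA4CP, 2.91 for SMPD3, 2.83 for VWA7 and 2.46 for CIDEB, and -3.24 for NR4A3, -2.82 for CHST13, -2.55 for OR51E1, -1.75 for TENT5C, -1.72 for SERPINI1 and -1.57 for SBK1. Among LS174T-only genes they were -3.12 for FOS, -2.81 for FCGBP, -2.66 for SPINK4, -2.62 for ANXA13, -2.44 for UGT2B17 and -2.39 for GPR15LG, and 1.98 for CEACAM6, 1.88 for ECM1, 1.56 for SH3TC2, 1.44 for PLCE1, 1.33 for CLU and 1.15 for KIF21B. Opposite directions gave -3.08 for KLK3, -3.03 for CCL24, -3.02 for ACSL6 and -2.93 for CDHR1.

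Differentiation and stem cell genes gave -2.10 for ATOH1, -2.39 for KRT20, 1.65 for KRT7, -1.86 for KRT23, -2.65 for SMOC2, -1.55 for EPHB3 and -0.88 for CDCA7. Among stress genes, SESN2 had 1.92, SHMT2 -1.05, WARS1 0.66, XBP1 -0.63, HSF2 -0.75, FTH1 1.23, ABCC2 1.79 and SLC39A8 -0.98. Metabolic and hypoxia genes gave 6.09 for IGFBP3, -1.24 for PFKFB3, 1.98 for DDIT4, 1.01 for ENO2, 1.27 for INSIG1, 0.65 for FDFT1, 0.99 for MVD, 1.49 for ACSS2, -1.07 for FADS2, 1.05 for LPIN1, 1.06 for ACSL1, 0.97 for ARRDC4 and 1.84 for BHLHE40.

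Immune genes gave 1.13 for IRF9, 1.80 for SAMD9, 1.45 for DDX60, 2.16 for IL1RN, 1.52 for PLAUR, 2.53 for TNFAIP2 and 1.10 for ULBP2. Adhesion, cytoskeleton, protease and transport genes gave 0.47 for EPCAM, 1.94 for LAMA3, 0.84 for ITGB5, 0.82 for ITGA3, 1.08 for MYOF, 0.91 for FLNA, 1.44 for KLK6, 1.03 for SERPINB5, 1.14 for SERPINE2, 1.59 for ANO1 and 1.04 for KCNN4. Signalling and cell cycle genes gave -0.999 for ETV4, -1.29 for JUN, -2.27 for ATOH8, 1.13 for SKIL, -0.997 for ID3, -1.60 for DLL4, -0.68 for NRARP, 0.79 for P2RY2, -0.79 for GMNN and -0.41 for NASP.

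Of the 84 genes, 65 kept their call without each of the 12 libraries in turn. The call was lost without LS513 3D replicate 1 for ENO2 (adjusted p = 0.0631), without LS174T 2D replicate 1 for FLNA (adjusted p = 0.0637) and without LS174T 2D replicate 3 or LS174T 3D replicate 1 for NRARP (adjusted p up to 0.0638). JUN (adjusted p up to 0.108), XBP1 (0.117), BHLHE40 (0.152), NASP (0.0647), SKIL (0.0819), ID3 (0.113) and EPCAM (0.0714) lost it without any one of 6 to 10 libraries. For JUN, XBP1, BHLHE40, SKIL and ID3, but not for NASP and EPCAM, LS174T 3D replicate 2 was among these libraries. XBP1 had a difference of -0.40 without LS174T 3D replicate 2, and FDFT1 (adjusted p up to 0.0826), MVD (0.0707), KRT23 (0.128) and ARRDC4 (0.0655) lost the call without any one of 4 or 5 libraries.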

How the results depend on the processing

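No called difference changed its sign under any other fit. The 701 differences ranged from 478 (without LS513 2D replicate 2) to 814 (without LS174T 3D replicate 3) on leaving out a library, and 363 were called in all of these fits. The LS513-only genes ranged from 170 to 322 (rising) and 49 to 118 (falling), the LS174T-only genes from 74 to 183 and 25 to 105, the opposite class from 50 to 106 and the same-direction class from 40 to 93. Between 2D and 3D libraries of the same replicate number, deviations from the group mean correlated at -0.128 to 0.079 in LS513 and -0.125 to 0.094 in LS174T. Between different numbers the correlation reached 0.221 in LS513. These values cannot decide whether the numbers pair libraries, since each group held 3. With the replicate block there were 461 differences, 179 and 48 LS513-only genes, 81 LS174T-only rising genes and 47 of the same direction. The DESeq2 test called 1119, with 157 LS513-only falling, 207 and 86 LS174T-only and 127 same-direction genes, and kept 98.1% of the 701. With all genes of at least 1 count there were 92 LS174T-only falling and 158 same-direction genes, and voom gave 31 LS174T-only falling genes. A fit of only the 12 libraries of these lines called 634 differences, of which 545 were among the 701. An adjusted p under 0.01 left 342 differences, 159 and 36 LS513-only, 60 and 28 LS174T-only, 26 opposite and 25 same-direction genes. A log2 difference of at least 1 left 392, and with a log2 change of at least 1 in the responding line required as well for the classes of 1 line there were 113 and 28 LS513-only, 77 and 14 LS174T-only and, on the difference alone, 43 same-direction genes. With a floor of 10 counts, genes silent in the other line numbered 281 and 72 for LS513 and 265 for rising genes of LS174T. The cause of these changes was not tested. Of 84 named genes, 57 kept their call under every fit with another filter, scaling, test or choice of libraries or technical replicates. With the replicate block, called sterol genes went from 5 to 1, Wnt and stem cell genes from 5 to 3 and purinergic genes from 1 to 0. The list counts without single libraries and under other settings were added after seeing the data. From at most 3 counts in 2D a fall cannot be seen.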
